A study of Mus musculus with 24 samples.

Results

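The clustered histone genes are the rows whose symbols start with Hist1h, Hist2h, Hist3h or Hist4h, and they were followed in polyadenylated RNA from the medial prefrontal cortex (mPFC) of mice at postnatal day 21 (P21). Of the 24972 rows in each of the 2 tables, 69 carried such a symbol. Of these, 35 had normalized counts that summed to at least 10 over the 12 male libraries and 38 did so over the 12 female libraries. Both tables held 33 of them, 2 passed only in males, 5 passed only in females and 29 passed in neither. The rows nearest the threshold were Hist3h2bb-ps inside it at 11.8 and Hist1h3i outside it at 9.90 in males. In females they were Hist1h3f inside it at 10.8 and Hist1h2ao outside it at 9.92.

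The study compared offspring of dams injected with morphine (MO) with offspring of dams injected with saline (SAL), 6 MO and 6 SAL libraries in each sex. The mice were wild-type B6D2F1/J offspring, with C57BL/6J mothers and DBA/2J fathers, and the dams received up to 10 mg/kg morphine sulfate subcutaneously each day from before breeding until weaning at P21, or saline on the same schedule. Only the dams were injected, so the offspring were exposed through the placenta and milk. Each litter gave 1 animal of each sex, so some male and female libraries are littermates, but the labels do not say which, and small litters had been combined. Libraries are named here by their labels, PFC1 to PFC24.

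Histones are the proteins around which DNA is wound. Most histone genes lie in clusters, are transcribed in S phase to match DNA replication, and yield mRNAs that end just after a conserved stem-loop without a poly(A) tail. The stem-loop is bound by the stem-loop binding protein, SLBP, which guides 3-prime end formation and translation. Some clustered genes also yield polyadenylated mRNAs from a signal farther downstream, and these are found in cells that no longer divide. Poly(A) selection, as used here, selects for the polyadenylated kind.

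The stem-loop was read from the annotated transcripts (GENCODE vM21, GRCm38), because mRNAs that end just after it lack a poly(A) tail. Its presence does not show which end an RNA has, because a transcript can also run past it. The 16-base pattern GGCNNTTNTNANNGCC was searched on the transcript strand only. It was present in 44 of the 69 rows (63.8%) and in 179 of 55341 annotated genes (0.323%). Each line below gives the stem in capitals with the loop and flanking bases in lower case.
Hist1h1c: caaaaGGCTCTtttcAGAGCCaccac
Hist3h2ba: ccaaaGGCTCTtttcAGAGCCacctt
Hist3h2a: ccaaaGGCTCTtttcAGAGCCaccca
Hist2h2aa1: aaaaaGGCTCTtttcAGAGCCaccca
Hist1h4c: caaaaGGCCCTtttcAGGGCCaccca
Hist1h4i: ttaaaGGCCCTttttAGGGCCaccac
The 4 lines of H1, H2A and H2B genes shared 1 stem, and the H4 lines differed from it in the middle of the stem.

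The annotated ends differed among rows that carry the same stem-loop. The longest transcript of Hist3h2a (chr11:58954685-58956830) ran 1643 bases past the stem-loop, that of Hist3h2ba (chr11:58948920-58949533) 169 bases and that of Hist1h1c (chr13:23738808-23740367) 840 bases. All 3 had the polyadenylation signal AATAAA after it. Hist2h2aa1 (chr3:96245497-96246082) ended 35 bases past it and Hist1h2ap (chr13:21833026-21833507) 3 bases past it, with no such signal. Hist1h2bc (chr13:23684199-23692908) and Hist2h2be (chr3:96221119-96223738) had no match to the pattern in their annotated transcripts. The authors counted on RefSeq models of a release that is not given, so which of these ends were counted is not known.

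Levels were low and concentrated in a few genes. Values are the authors' normalized counts, in which 1 read was worth 0.781 to 1.18 depending on the library. Of 624 low member values, 573 (91.8%) lay within 0.1 of a whole number of reads, so a value of 10 was about 10 reads. Over all 69 rows the sum per library was 930 to 1668 in female MO, 956 to 1126 in female SAL, 952 to 1216 in male MO libraries and 950 to 1158 in male SAL libraries, which is 0.00604% to 0.0113% of a library. The 6 highest rows held most of it, with 785 to 1422 in female MO, 823 to 992 in female SAL, 810 to 1015 in male MO libraries and 787 to 934 in male SAL libraries.

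**Figure D1:**
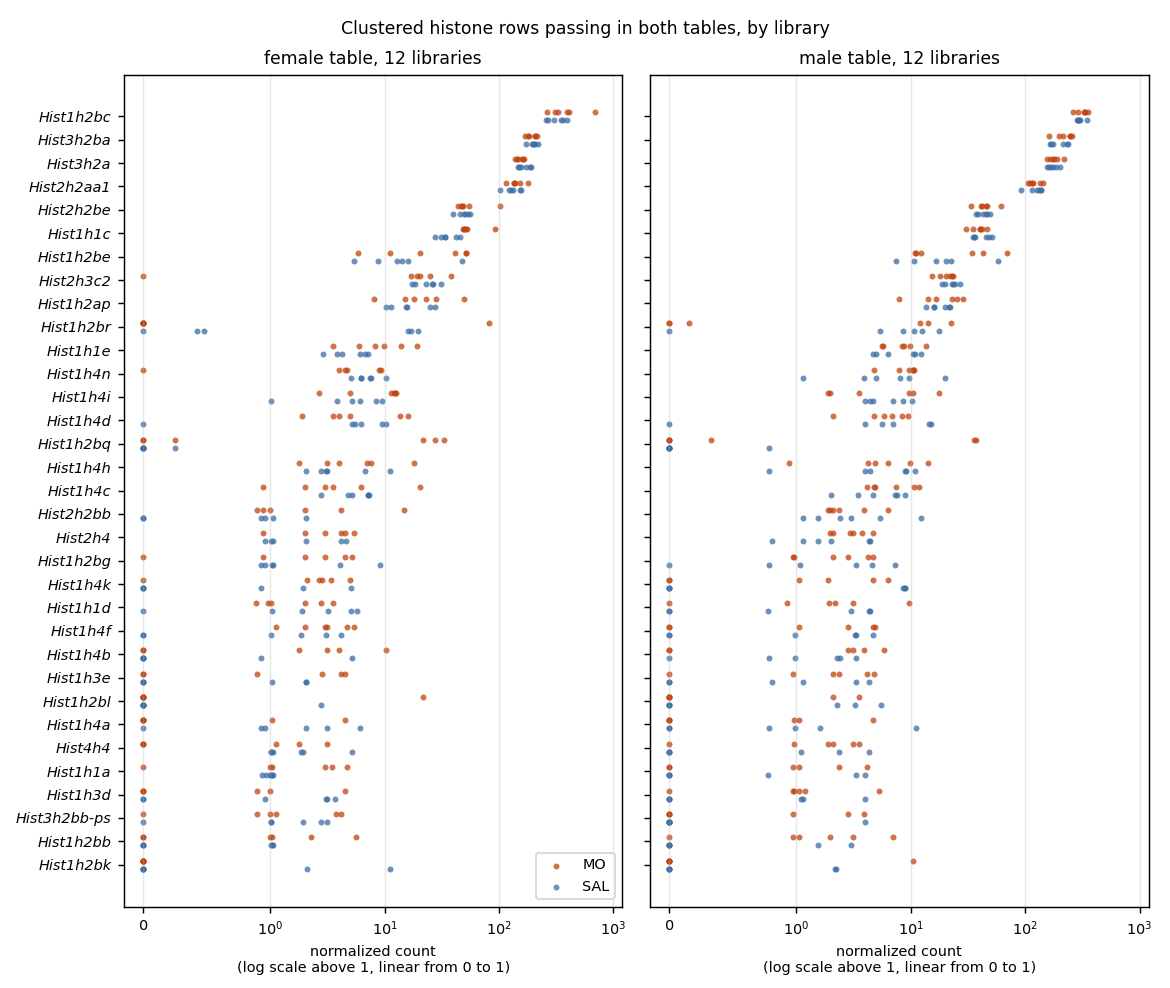
Normalized counts (horizontal axis, log scale above 1) of the 33 clustered histone rows that passed in both tables, in each of 12 female and 12 male libraries, with MO above SAL in each row. The 6 genes from Hist1h2bc down to Hist1h1c were at 27.7 or more in every library, while 20 of the 33 rows were at 0 in at least 1.

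Hist1h2bc, an H2B gene, was the highest row, with 263 to 696 (median 361) in female MO libraries, against 257 to 392 (median 325) in female SAL libraries. In males it had 261 to 352 (median 329) in MO and 286 to 350 (median 294) in SAL libraries. The groups overlapped in both sexes. The H2B gene Hist3h2ba followed, with 169 to 215 (median 195) in female MO against 172 to 219 (median 201) in female SAL libraries, and 162 to 256 (median 229) in male MO against 166 to 237 (median 196) in male SAL libraries. Its neighbour, the H2A gene Hist3h2a, had 139 to 165 (median 153) in female MO, 146 to 190 (median 163) in female SAL, 155 to 217 (median 176) in male MO libraries and 156 to 202 (median 174) in male SAL libraries. Both genes lie in the small cluster on chromosome 11.

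Hist2h2aa1, an H2A gene, had 116 to 178 (median 136) in female MO, 102 to 155 (median 130) in female SAL, 105 to 142 (median 117) in male MO libraries and 91.3 to 139 (median 129) in male SAL libraries. Hist2h2be, an H2B gene, had 43.9 to 102 (median 47.8) in female MO, 39.3 to 56.1 (median 50.1) in female SAL, 33.5 to 61.8 (median 43.9) in male MO libraries and 37.2 to 49.7 (median 44.3) in male SAL libraries. For both genes the MO and SAL ranges overlapped. Hist1h2be, another H2B gene, spread widely, with 5.83 to 51.6 (median 30.6) in female MO, 5.43 to 47.3 (median 13.6) in female SAL, 10.9 to 69.0 (median 23.4) in male MO libraries and 7.51 to 58.0 (median 18.5) in male SAL libraries. The H2A gene Hist1h2ap had 8.05 to 49.1 (median 20.5) in female MO, 10.2 to 27.6 (median 15.6) in female SAL, 7.86 to 28.4 (median 19.8) in male MO libraries and 13.7 to 21.9 (median 18) in male SAL libraries.

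Counts depend on gene length, so genes were compared per kilobase, and the order at the top then depended on which annotated length was used. RefSeq spans were used first, except where the span was much longer than the longest GENCODE transcript, whose length was then used. Hist1h2bc was such a row, with 1156 bases used and a RefSeq span of 8282. On these lengths Hist3h2ba averaged 440.0 normalized counts per kilobase over the 24 libraries, Hist3h2a 332, Hist1h2bc 290.0 and Hist2h2aa1 234. Hist1h1c had 60.1, Hist1h2ap 43.4, Hist2h3c2 33.4 and Hist2h2be 18.3. The rest of the 33 rows had 18.1 or less. With the longest GENCODE transcript throughout, Hist3h2ba had 331, Hist1h2bc 290.0, Hist2h2aa1 222, Hist3h2a 78.7, Hist1h2ap 40.7, Hist1h1c 28.0, Hist2h3c2 21.2 and Hist2h2be 18.6. Hist3h2ba was first on both, while Hist3h2a came next with its RefSeq span but below Hist1h2bc and Hist2h2aa1 with its longer GENCODE transcript. Of the 8 rows with a mean normalized count of at least 20, 6 held the stem-loop and 5 had AATAAA in the last 60 bases of an annotated transcript. Of the 25 other rows that passed in both tables, 17 held the stem-loop and 5 had AATAAA there. This is a description of annotated models, not of the ends of the RNAs in these libraries.

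The replication-independent variants are histone genes most of which are expressed outside S phase and give ordinary polyadenylated mRNAs. Summed by class, they were far higher than the clustered rows of the same class. Single variants were not all higher than single clustered rows. Cenpa averaged 21.9, H2afy2 172 and H2afv 250 per kilobase of the longest annotated transcript, against 331 for the clustered gene Hist3h2ba. Per kilobase of the longest annotated transcript, the 12 clustered H3 rows summed to 19.6 to 50.6 in female and 22.7 to 40.8 in male libraries. The 3 H3 variants (H3f3a, H3f3b and Cenpa) summed to 2026 to 2842 in female and 2068 to 2388 in male libraries. The 19 clustered H2A rows summed to 297 to 445 in female and 272 to 393 in male libraries. The 6 H2A variants summed to 3273 to 4084 in female and 3053 to 3943 in male libraries. For H1, the 6 clustered rows summed to 21.3 to 72.8 in females and 23.8 to 40.6 in males, and H1f0 with H1fx to 1143 to 1405 in females and 1065 to 1432 in males. The ranges of clustered and variant rows did not overlap for any of these 3 classes.

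At the low end, 4 of the 69 rows were at 0 in all 24 libraries. Of the 33 rows that passed in both tables, 13 were above 0 in all 24 libraries and 3 were at 0 in 12 or more. Each library had between 3 and 10 of the 33 at 0. Among the rows tested in each table, 6 to 13 of 38 were at 0 in female MO libraries (median 10.0) and 8 to 12 in female SAL libraries (median 10.5), and 5 to 9 of 35 in male MO libraries (median 7.0) and 3 to 11 in male SAL libraries (median 9.5). At these read numbers a 0 does not show that a gene was silent.

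Many zeros belonged to near-identical copies. A read of 85 bases can be assigned to 1 gene only if it differs from all others within that length. Hist1h2bq and Hist1h2br, H2B genes on chromosome 13 (chr13:21806612-21810197 and chr13:21833743-21837530), had the same 402 coding bases, with 0 differences. The first 60 are shown because a read from here fits either gene.
Hist1h2bq: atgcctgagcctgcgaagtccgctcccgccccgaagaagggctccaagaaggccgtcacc
Hist1h2br: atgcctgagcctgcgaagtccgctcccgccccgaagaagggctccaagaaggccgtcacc
Over whole transcripts, 95.6% of the 85-base stretches of Hist1h2bq were also in Hist1h2br, and 87.1% the other way. In contrast, Hist1h2bc and Hist1h2be differed at 6 of 378 coding bases. Of the 294 coding 85-base stretches of Hist1h2bc, 131 were still also in Hist1h2be. The first 60 bases of both are shown with the differing ones in capitals.
Hist1h2bc: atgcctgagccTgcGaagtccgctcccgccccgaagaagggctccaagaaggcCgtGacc
Hist1h2be: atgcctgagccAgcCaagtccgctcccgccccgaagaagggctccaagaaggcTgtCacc
The H4 genes Hist1h4c and Hist1h4d had more divergent DNA, with 23 of 309 coding bases differing.
Hist1h4c: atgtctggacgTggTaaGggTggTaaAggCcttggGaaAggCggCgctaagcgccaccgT
Hist1h4d: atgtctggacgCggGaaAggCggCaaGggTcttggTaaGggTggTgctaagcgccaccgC
Among these first 60 bases, 12 differed.

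Hist1h2bq and Hist1h2br were never both at 1 or more in the same library. Hist1h2bq alone reached 1 in 5 libraries, Hist1h2br alone in 12, and neither in 7. In female MO libraries, Hist1h2bq had 21.7 in PFC5, 32.8 in PFC21 and 27.7 in PFC23, and Hist1h2br had 81.3 in PFC1. In female SAL libraries, Hist1h2bq was at most 0.255, and Hist1h2br had 17.2 in PFC2, 19.6 in PFC6 and 15.9 in PFC22. In male MO libraries, Hist1h2bq had 37.0 in PFC10 and 36.1 in PFC15, while Hist1h2br had 12 in PFC11, 14.3 in PFC17 and 22.5 in PFC19. In male SAL libraries, Hist1h2bq was at most 0.787 and Hist1h2br was between 5.42 and 17.6 in 5 libraries. Where either gene reached 1, nearly all reads of the pair therefore stood on 1 symbol, and the symbol changed from library to library. Summed, the pair had 0.0 to 81.3 (median 24.7) in female MO, 0.0 to 19.6 (median 8.34) in female SAL, 0.327 to 37.0 (median 18.4) in male MO libraries and 0.0 to 17.6 (median 9.57) in male SAL libraries.

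**Figure D2:**
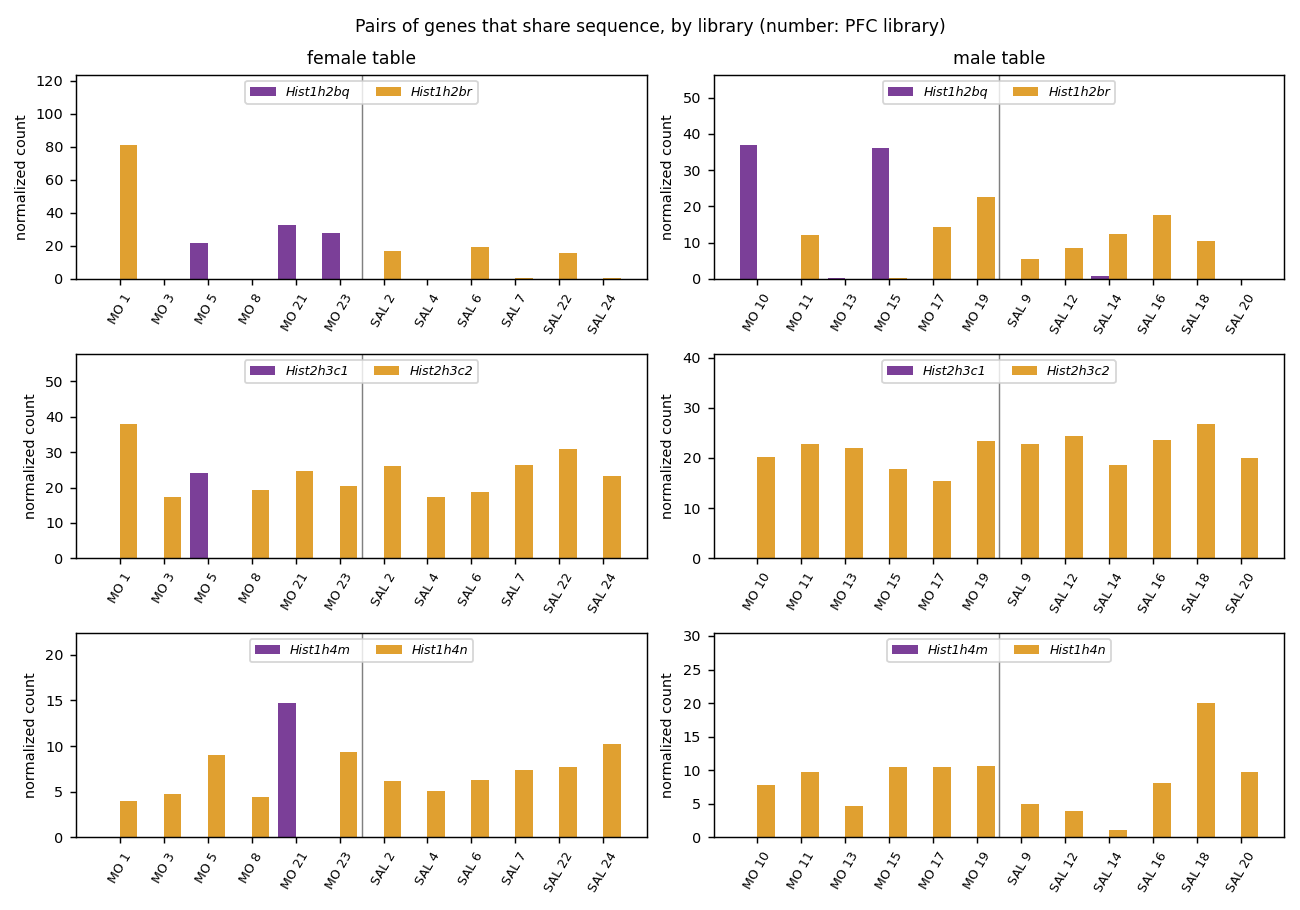
Normalized counts of 3 pairs of genes that share sequence, by library, MO left of SAL, females left and males right. In the upper row Hist1h2bq and Hist1h2br replaced each other between libraries. In the lower rows the usual gene was at 0 and the other was not in 1 female MO library each.

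A switch of this kind occurred once in each of 2 more pairs. The H3 gene Hist2h3c2 had 15.5 to 38.0 in 23 libraries and 0 in PFC5, a female MO library, where Hist2h3c1 had 24. Hist2h3c1 was at 0 in the other 23. In the GENCODE transcripts, the longest of 1825 and 1020 bases, 33.4% of the 85-base stretches of Hist2h3c1 were in Hist2h3c2 and 62.2% the other way. Of the 459 coding stretches of Hist2h3c1, 324 were also in Hist2h3c2. The RefSeq spans of the 2 genes are shorter, 664 and 649 bases, and the share on those was not computed. The H4 gene Hist1h4n was above 1 in 23 libraries and 0 in PFC21, also female MO, where Hist1h4m had 14.7. Hist1h4m was at 0 elsewhere, and both H4 genes have the same 309 coding bases. Summed over each pair, the zeros vanished: Hist2h3c1 and Hist2h3c2 had 17.2 to 38.0 in female MO, 17.4 to 30.9 in female SAL, 15.5 to 23.3 in male MO libraries and 18.6 to 26.8 in male SAL libraries. Hist1h4m and Hist1h4n had 4.01 to 14.7 in female MO, 5.10 to 10.2 in female SAL, 4.73 to 10.6 in male MO libraries and 1.14 to 20 in male SAL libraries. Hist2h2aa2, all of whose 85-base stretches are also in Hist2h2aa1 (100%), was at 0 in all 24 libraries, so the values of Hist2h2aa1 may stand for both. A further annotated gene, Gm20634, also held 100% of the stretches of Hist2h2aa2 and 88.6% of those of Hist2h2aa1. It held 100% of those of Hist2h3c1 and 62.2% of those of Hist2h3c2 as well. Whether reads of these genes were counted on Gm20634 was not tested. Hist1h2ao and Hist1h2ap share 92.9% and 92.5% of their stretches. Hist1h2ap was at 1 or more in all 24 libraries, and Hist1h2ao was so in 8.

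Other rows at 0 in some libraries and at 10 or more in another were mostly single high values. Hist1h2bl, an H2B gene, had 21.7 in PFC3 (female MO) and was at 0 in 10 of the 12 female libraries. Hist1h2bk, also H2B, had 11.2 in PFC24 (female SAL), 10.4 in PFC13 (male MO) and 0 in 19 libraries. Of their read-length stretches, 56.9% for Hist1h2bl and 63.5% for Hist1h2bk were also in Hist1h2bq and in Hist1h2br. Hist1h2bq and Hist1h2br had 0.253 and 0 in PFC3, 0 and 0.476 in PFC24, and 0.327 and 0 in PFC13. In PFC4 (female SAL) and PFC8 (female MO), Hist1h2bk and Hist1h2bl were at 0, as were Hist1h2bq and Hist1h2br. Other H2B rows were above 0 there: Hist1h2bj had 9.18 in PFC4 and 3.58 in PFC8, and Hist1h2bn had 4.08 and 6.26. Of their stretches, 46.4% for Hist1h2bj and 49.2% for Hist1h2bn were also in Hist1h2bq and in Hist1h2br. Whether reads of Hist1h2bq and Hist1h2br were counted on any of these rows was not tested. Hist2h2bb, a further H2B gene, had 14.7 in PFC21 (female MO) and 12.2 in PFC18 (male SAL). Hist1h4a had 11.1 in PFC18, Hist1h4b 10.2 in PFC21, and Hist1h4d 15.9 in PFC21 and 15.1 in PFC20. The H4 genes and Hist2h2bb thus had their high values in the same few libraries.

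The 13 H4 rows were therefore summed per library and set beside RNAs that lack a poly(A) tail. Rn45s is the precursor of ribosomal RNA, and Rmrp and Rpph1 are the RNA parts of the RNases MRP and P. They were chosen after the values were seen. In 4 libraries Rn45s was at 50000 or more, namely PFC21 (female MO) with 71348, PFC19 (male MO) with 65027, PFC20 (male SAL) with 64207 and PFC18 (male SAL) with 58086. It was 19983 to 36717 in the other 11 female and 21726 to 36587 in the other 9 male libraries. The H4 rows summed to 108 in PFC21, against 33.1 to 63.7 in the other female libraries. They summed to 76.4 in PFC19, 75.6 in PFC20 and 84.3 in PFC18, against 27.4 to 55.4 in the other male libraries. Below these 4 libraries the orders matched less well. PFC23 (female MO) was second of the female libraries in both, with 36717 in Rn45s and 63.7 in the H4 sum. PFC5 (female MO) was rank 4 of 12 in Rn45s, at 33462, and rank 11 in the H4 sum, at 35.0, and PFC8 (female MO) was rank 6 and rank 12. PFC1 (female MO) was rank 11 in Rn45s, at 20561, and rank 5 in the H4 sum, at 41.1. Rmrp was 163 in PFC21 against 29.9 to 109 in the other female libraries, and 135 to 201 in the 3 male libraries against 30.5 to 86.4 in the rest. Rpph1 was 39.7 against 4.08 to 38.6 in females and 47.7 to 60 against 8.05 to 22 in males.

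**Figure D3:**
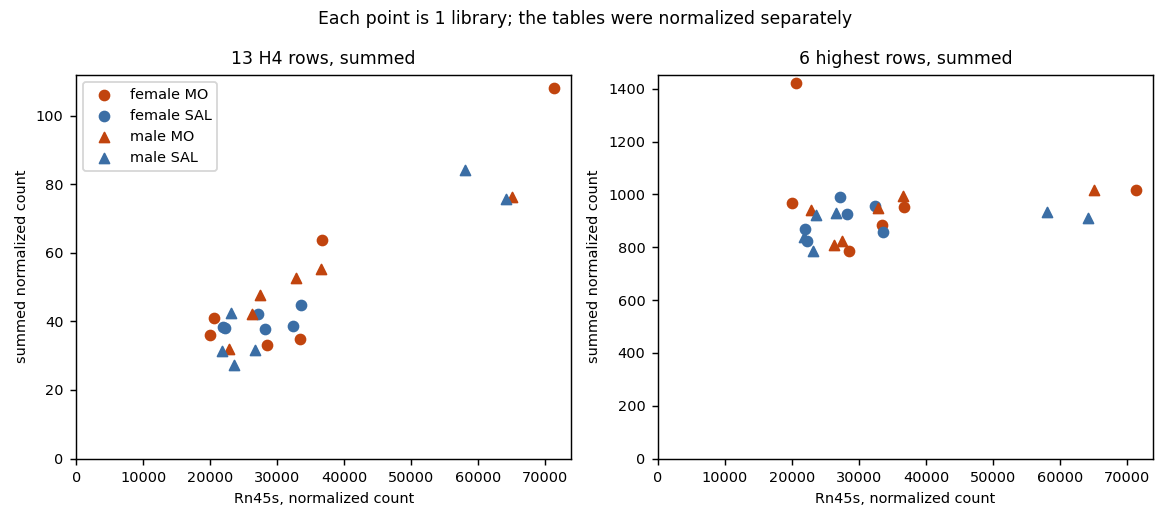
Summed normalized counts of the 13 H4 rows (left) and of the 6 highest clustered histone rows (right) against Rn45s in each library. The 4 libraries with the most Rn45s (58086 to 71348) had H4 sums of 75.6 to 108, the highest of their tables, while the sums of the 6 highest rows lay between 911 and 1016 in them.

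The higher H4 sums came from several rows. Of the 11 H4 rows that passed in both tables, 10 averaged more in the 3 male libraries high in Rn45s than in the other 9, and 8 were higher in PFC21 than the mean of the other female libraries. The share of all genes higher in these libraries was not counted. These rows include Hist1h4a, Hist1h4b and Hist1h4d, whose values had led to the sum. Several H4 rows also share read-length stretches, so the rows are not independent. Hist1h4d averaged 13 in the 3 male libraries against 4.95 in the rest, and Hist1h4a 5.26 against 0.601. Hist1h4i went the other way in males, with 5.54 against 7.54. The clustered H3 rows summed to 44.1 in PFC21, against 22.7 to 43.0 in the other female libraries, and to 27.6 to 37.9 in the 3 male libraries, against 22 to 31.4. The 6 highest rows summed to 1016 in PFC21, against 785 to 1422, and to 911 to 1015 in the 3 male libraries, against 787 to 994. Whether RNA without a poly(A) tail accounts for the H4 values was not tested.

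These libraries bear on the H4 comparison between MO and SAL. Over all libraries the H4 rows summed to 52.7 ± 29.2 in female MO and 40.0 ± 2.89 in female SAL libraries (SD, n = 6 each). Without PFC21 the female MO mean was 41.8 ± 12.6 (n = 5). In males the sums were 51.1 ± 14.9 in MO and 48.8 ± 24.8 in SAL libraries (SD, n = 6 each), and 46.0 ± 9.25 in 5 MO and 33.3 ± 6.54 in 4 SAL libraries without those high in Rn45s. The MO mean minus the SAL mean was 12.7 in females and 2.30 in males with all libraries, and 1.79 and 12.7 without them. Leaving the libraries out was chosen after the values were seen.

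MO was then compared with SAL within each table by limma on log2(normalized count + 1), over all rows that summed to at least 10, with Benjamini-Hochberg adjusted p-values. Differences below are MO minus SAL on that scale, which understates the change of low genes. None of the 38 clustered histone rows tested in females and none of the 35 in males passed an adjusted p of 0.05, and neither did any of the 16717 female or 16662 male genes (0.0% in each). The smallest adjusted p of any row was 0.918 in females and 1.0 in males. At an unadjusted p under 0.05, 3 clustered histone rows were higher in female MO libraries, where 1.81% of all genes were, and 0 were lower, where 1.12% were. In males 0 rows were higher and 0 lower at that level, against 1.33% and 1.52% of all genes. Rows that passed in females alone could have passed through their high libraries, as Hist2h3c1 and Hist1h4m did, so the medians are over the 33 rows that passed in both tables. The median difference was 0.27 in females, with 21 of 33 above 0, and 0.08 in males, with 23 of 33 above 0, beside 0.0 for all genes in each. In females it was 0.11 with sample weights and 0.13, with 6 of 10 above 0, over rows with a mean of at least 10. In males these were 0.04, and 0.03 with 5 of 9 above 0. Leaving out each library gave 0.19 without PFC3 to 0.36 without PFC8 in females, and 0.02 without PFC16 or PFC19 to 0.21 without PFC18 in males.

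**Figure D4:**
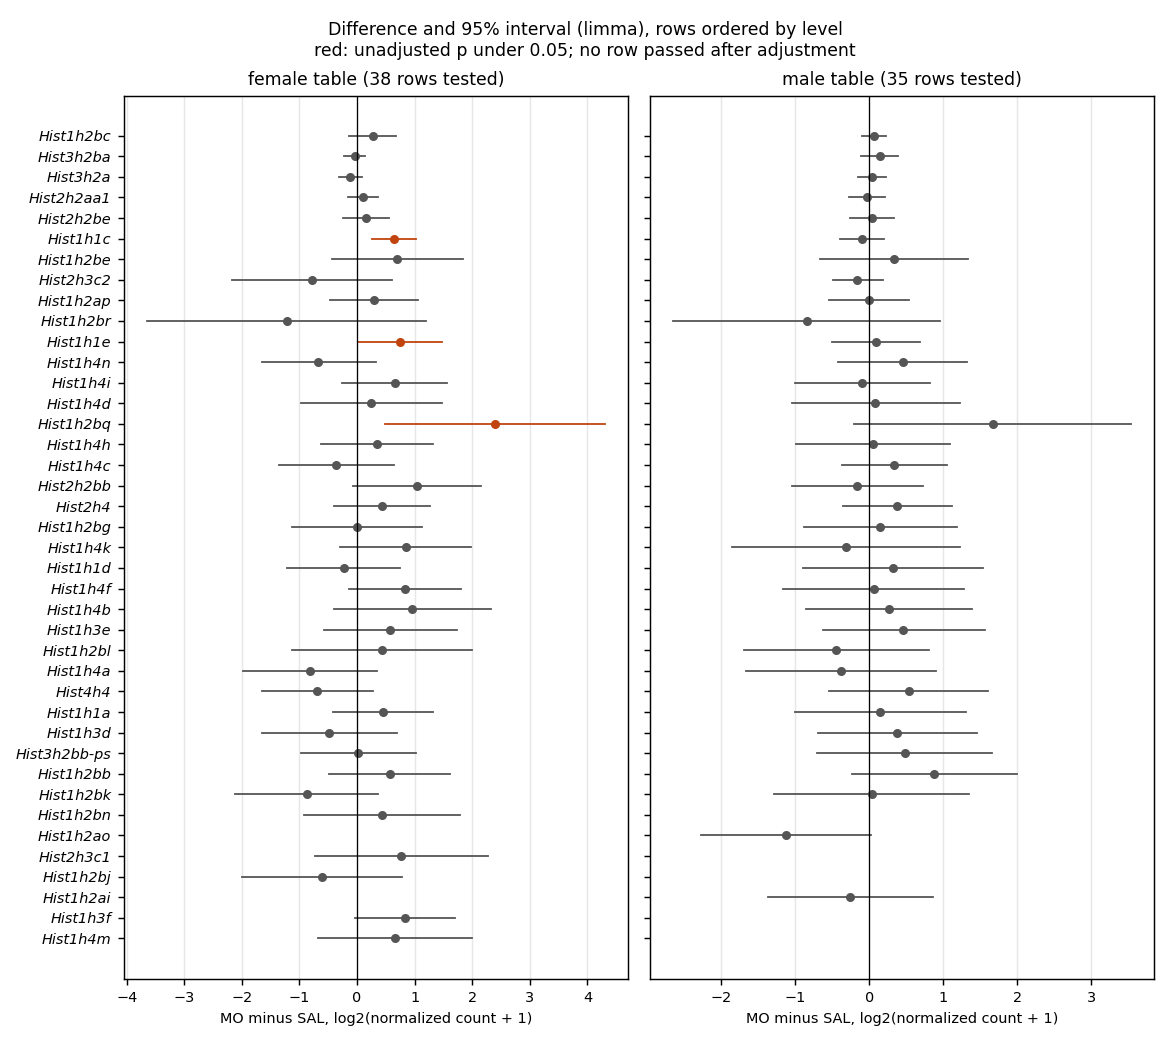
MO minus SAL on the log2(normalized count + 1) scale with 95% intervals from limma, for the 38 rows tested in females (left) and the 35 in males (right), ordered by level. Hist1h1c, Hist1h1e and Hist1h2bq in females are the rows at an unadjusted p under 0.05, and no row passed after adjustment.

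Hist1h1c, which encodes a linker histone that binds DNA between nucleosomes, had the smallest p among the clustered histone rows. In female MO libraries it had 92.7 in PFC1, 51.6 in PFC3, 49.2 in PFC5, 48.8 in PFC8, 52.1 in PFC21 and 49.3 in PFC23. In female SAL libraries it had 42.3 in PFC2, 33.7 in PFC4, 46.1 in PFC6, 27.7 in PFC7, 33.8 in PFC22 and 31.3 in PFC24. All 6 MO libraries lay above all 6 SAL libraries, as was so for 10 of 16717 genes (0.0598%). The means were 57.3 ± 17.4 in MO and 35.8 ± 6.95 in SAL libraries (SD, n = 6 each). The difference was 0.64 with a 95% interval of 0.26 to 1.02 (limma p = 0.00273, adjusted p = 0.918, 2-sided exact permutation p = 0.00216). The permutation p is the smallest that 6 against 6 libraries allow. Without PFC1, the highest library, the difference was 0.50 (limma p = 0.00372, exact permutation p = 0.00649) and the groups still did not overlap. It did not pass the correction over all genes, although its direction held in 6 of 6 MO libraries.

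In males Hist1h1c had 30.5, 40.4, 41.8, 34.8, 46.8 and 40.6 in MO libraries PFC10, PFC11, PFC13, PFC15, PFC17 and PFC19. It had 36.8, 51.1, 48.4, 35.9, 45.6 and 35.0 in SAL libraries PFC9, PFC12, PFC14, PFC16, PFC18 and PFC20. The groups overlapped, with a difference of -0.10 and a 95% interval of -0.40 to 0.20 (limma p = 0.495, adjusted p = 1.0, exact permutation p = 0.446). The difference between sexes was tested in 1 model over all 24 libraries, as the female difference minus the male difference. For Hist1h1c it was 0.74 with a 95% interval of 0.28 to 1.21 (limma adjusted p = 1.0). It was the only one of 33 rows at an unadjusted p under 0.05, with 1 higher and 0 lower, where 1.29% and 0.715% of the 16502 genes tested were. No gene passed an adjusted p of 0.05 in that test (0.0%), and the test treats littermates of both sexes as independent.

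**Figure D5:**
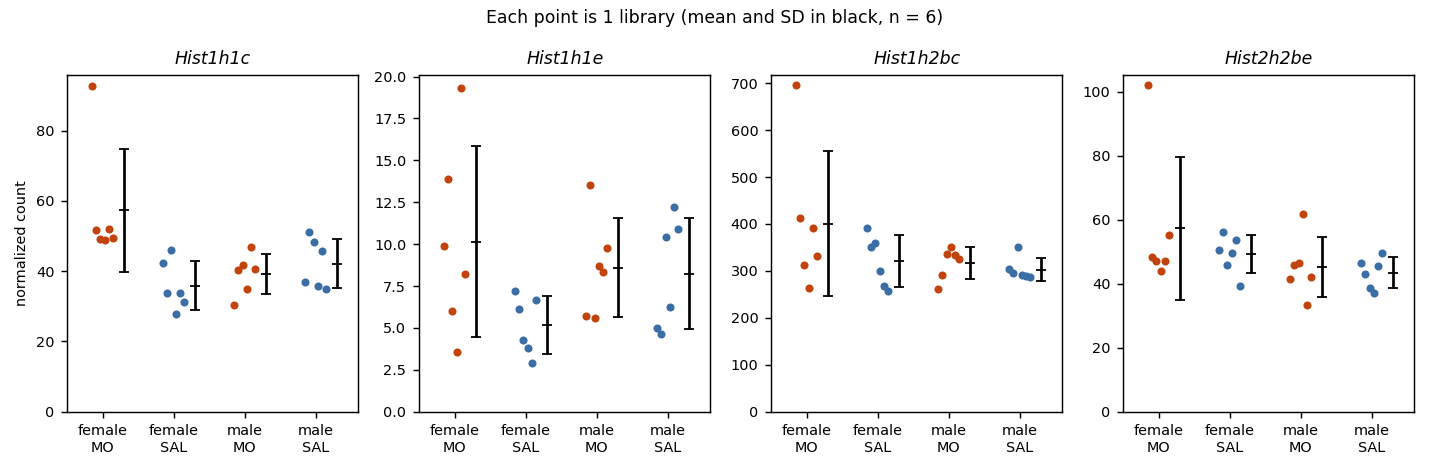
Normalized counts of Hist1h1c, Hist1h1e, Hist1h2bc and Hist2h2be in each library by group, with mean and SD (n = 6 each). The female MO values of Hist1h1c (48.8 to 92.7) were above all female SAL values (27.7 to 46.1), and PFC1 was the highest point of Hist1h1c, Hist1h2bc and Hist2h2be.

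Hist1h1e, another linker histone gene, had 3.55 to 19.3 (median 9.06) in female MO and 2.90 to 7.23 (median 5.20) in female SAL libraries, which overlapped. The difference was 0.74 with a 95% interval of 0.01 to 1.47 (limma p = 0.0474, adjusted p = 0.918, exact permutation p = 0.0671). Without PFC21, its highest library, the difference was 0.53 and the limma p was 0.125. In males it had 5.59 to 13.5 (median 8.50) in MO and 4.65 to 12.2 (median 8.32) in SAL libraries, with a difference of 0.09. The annotated transcripts of Hist1h1e share 22.3% of their 85-base stretches with a long annotated transcript of Hist1h2be, so part of its reads could have been counted there. The remaining row, Hist1h2bq, had a difference of 2.40 in females with a 95% interval of 0.49 to 4.31 (limma p = 0.0171, adjusted p = 0.918, exact permutation p = 0.106). Its SAL libraries were all at 0.255 or less while its copy Hist1h2br held the reads in 3 of them. Hist1h2br itself had a difference of -1.22 (95% interval -3.65 to 1.20, exact permutation p = 0.437).

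The intervals of the other high rows included 0. In females the difference was 0.27 for Hist1h2bc (95% interval -0.14 to 0.67), -0.04 for Hist3h2ba (-0.22 to 0.14), -0.12 for Hist3h2a (-0.32 to 0.08), 0.11 for Hist2h2aa1 (-0.15 to 0.37) and 0.16 for Hist2h2be (-0.24 to 0.55). In males it was 0.06 for Hist1h2bc (-0.10 to 0.22), 0.14 for Hist3h2ba (-0.11 to 0.39), 0.03 for Hist3h2a (-0.15 to 0.22), -0.03 for Hist2h2aa1 (-0.27 to 0.21) and 0.04 for Hist2h2be (-0.26 to 0.34). For these 5 genes, changes of more than 0.67 on this scale in either direction lay outside the interval in both sexes. Below the 12 highest rows the intervals were wide, and for some of those 12 as well. In females the interval was -0.44 to 1.84 for Hist1h2be and -2.18 to 0.61 for Hist2h3c2. For Hist1h4c, for example, the interval ran from -1.36 to 0.64 in females and from -0.37 to 1.05 in males.

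PFC1, a female MO library, stood apart in several rows. It had the highest value of its table for Hist1h2bc (696), Hist2h2be (102), Hist1h1c (92.7), Hist2h2aa1 (178) and Hist2h3c2 (38.0), but not for Hist3h2a (146, rank 9 of 12) or Hist3h2ba (208, rank 3 of 12). PFC1 also had the highest summed value in 8 of the 10 marker lists, all but those of cortical neurons and choroid plexus. For the oligodendrocyte genes Mbp, Mog, Mag, Mobp and Cnp it had 194819, and the sums were 28363 to 194819 among female MO libraries, against 19053 to 81108 among female SAL libraries. All 5 genes had a difference above 0 in females, and 0 of 5 reached an unadjusted p of 0.05. The astrocyte genes summed to 25258 to 53801 among female MO libraries, against 22318 to 32775 among female SAL libraries. The microglia genes summed to 4994 to 9125 among female MO libraries, against 3490 to 6808 among female SAL libraries. The genes of striatum, a region outside the mPFC, summed to 2021 to 5784 among female MO libraries, against 2085 to 2824 among female SAL libraries. PFC1 was the top of each of these MO ranges. The blood genes summed to 4608 to 18869 among female MO libraries, against 2833 to 10584 among female SAL libraries. The genes of oligodendrocyte precursors summed to 4877 to 10119 among female MO libraries, against 4423 to 6783 among female SAL libraries. The neuroblast genes summed to 1016 to 1751 among female MO libraries, against 902 to 1407 among female SAL libraries. PFC1 was the top of these MO ranges as well. Of the 5 endothelial genes, 2 were higher in female MO libraries at an unadjusted p under 0.05, where 1.81% of all genes were, Pecam1 by 0.33 and Flt1 by 0.21. Summed, they had 2840 to 4033 in female MO libraries, against 2544 to 3147 in female SAL libraries. In the male table PFC15 (MO) had the highest sum in 3 of the 10 lists, with 82743 for the oligodendrocyte genes, and it was also the highest for Hist1h2bc (352), Hist2h2be (61.8) and Hist1h2be (69.0), and rank 11 of 12 for Hist1h1c (34.8). In bulk tissue, more cells of a type and more RNA per cell cannot be told apart, and the part of these lists in the histone values was not tested. The cortical neuron genes, such as Slc17a7 and Snap25, were high in all libraries, with sums of 111098 to 132851 in female MO, 117136 to 137160 in female SAL, 118962 to 130166 in male MO libraries and 121811 to 128308 in male SAL libraries.

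Genes that act around histone mRNAs and proteins were counted at the same unadjusted p under 0.05, beside 1.81% of all genes higher and 1.12% lower in females, and 1.33% higher and 1.52% lower in males. Of 16 genes for histone transcription and 3-prime end processing, among them Slbp and Npat, 0 reached an unadjusted p of 0.05 in either sex. Their median difference was -0.02 in females and 0.02 in males, beside 0.0 for all genes in each. Of 11 histone chaperones, Asf1a, which carries H3 and H4 to DNA, was higher at that level in females, with 181 ± 30.8 in MO and 151 ± 17.3 in SAL libraries (SD, n = 6 each) and a difference of 0.25 (limma p = 0.0407, adjusted p = 0.918, exact permutation p = 0.0411). None of the 11 was lower in females, and none differed in males. Of 25 genes of S phase and cell division, 0 differed in females. In males Mcm2, a subunit of the replicative helicase, was higher, with 60.6 ± 7.93 in MO and 48.2 ± 11.2 in SAL libraries (SD, n = 6 each) and a difference of 0.35 (limma p = 0.0491, adjusted p = 1.0, exact permutation p = 0.0368). The 11 replication-independent variants had 0 rows at that level in either sex, with a median difference of 0.04 in both.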

How the data were processed

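Directional poly(A) RNA-seq libraries from mPFC of 24 offspring (6 per sex and treatment) had been sequenced as single 85-base reads. STAR alignment to mm10 and Salmon quantification of RefSeq genes were done by the authors, and the RefSeq release is not given in the sources used here. The deposited tables hold a signal: counts that the authors had normalized, separately for each sex, and not raw counts. Reads could not be recovered as whole numbers for all genes (59.8% to 90.9% of low values were whole), so no count model was used. The normalized counts of a library summed to 14728966 to 15966593, and raw depth is not known beyond the value of 1 read. Of the 24 columns, 11 are marked combined, which is not explained in the sources used here.

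The rows were taken by symbol. Rows summing to at least 10 over the 12 libraries of a table were tested with limma 3.58.1 (R 4.3.3) on log2(normalized count + 1), with trend and Benjamini-Hochberg adjustment over all rows. The difference between sexes was a contrast over rows kept in both tables. Single rows were also tested by exact permutation of the 12 labels. On simulated data with known changes the fit was checked. Separate animals are the replicates. Lengths, stem-loops and shared 85-base stretches came from GENCODE vM21 (all 69 rows matched) and RefSeq on GRCm38. The reference is C57BL/6J, so sequence of the DBA/2J allele was not used here. Per-kilobase levels used the RefSeq span for 63 rows. The rest, whose RefSeq spans were much longer than their GENCODE transcripts, used the longest GENCODE transcript. Sums by class used the longest GENCODE transcript throughout. The members and gene lists were chosen with earlier results of these data known. A further gene of the oligodendrocyte list is not reported here. Named with values were the 12 highest rows, rows at an unadjusted p under 0.05, rows at 0 in 1 library and at least 10 in another of the same table, and up to 4 genes per list with the smallest p. Some further rows, such as Hist1h2bj and Hist1h2bn, were named for the sequence they share. Alternatives were pseudocounts of 0.5 and 5, no filter, a mean of at least 10, a term for combined columns, scaling to Gapdh and Ppia, sample weights, leaving out each library and summing copies. Versions were Python 3.11.15, SciPy 1.17.1, pandas 2.3.3 and matplotlib 3.10.9.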

Additional observations from a re-analysis of the deposited data

Results flagged for a closer look

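Among 13 clustered histone rows in 4 groups of 6 libraries (52 groups), 9 values lay far from the rest of their group by Dixon's criterion. Chance flags about 1 in 20 groups of normally distributed values, a rate that need not hold for counts with many zeros. In the SAL groups of Hist1h2bq, 5 libraries were at 0, so any other value is flagged. In female MO libraries, PFC1 was far above the others for Hist1h2bc (696, next 412), Hist2h2be (102, next 55.3), Hist1h1c (92.7, next 52.1) and Hist1h2br (81.3, all others at 0.0). In female SAL libraries, Hist1h2be had 47.3 in PFC6 (next 16.1), and Hist1h2bq had 0.255 in PFC22 with the others at 0.0. In male SAL libraries, Hist1h2bc had 350.0 in PFC14 (next 304), Hist1h2be had 58.0 in PFC16 (next 22.7), and Hist1h2bq had 0.787 in PFC14 with the others at 0.0. The 2 values of Hist1h2bq are under 1 read. The effect of MO on Hist1h1c differed between the sexes at an unadjusted p under 0.05, by 0.74 on the log2 scale (female minus male difference), with an adjusted p of 1.0.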

How the results depend on the processing

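No gene passed an adjusted p of 0.05 in either table or in the test between sexes under any alternative run (range 0 to 0 without each library). Counts of clustered histone rows at an unadjusted p under 0.05 moved more. In females, 3 became 7 with no filter, 5 after scaling to Gapdh and Ppia and 1 with a mean of at least 10, and they ranged over 2 to 6 when each library was left out, with 6 without PFC21. In males 0 became 1 with no filter and ranged over 0 to 2. Between sexes 1 became 2 with a term for combined columns and ranged over 1 to 2. Hist1h1c in females kept its direction and an unadjusted p under 0.05 in all alternatives, with differences of 0.50 to 0.72 without each library. Small differences changed sign for Hist1h2ap in males (0.01 at a pseudocount of 5, 0.09 with a term for combined columns) and Hist3h2ba in females (0.05 after scaling). Without each library in turn, differences that changed sign ranged over -0.04 to 0.21 for Hist1h1e, -0.14 to 0.20 for Hist1h2ap, -0.11 to 0.01 for Hist2h2aa1, -0.06 to 0.12 for Hist2h2be and -0.02 to 0.07 for Hist3h2a in males, and over -0.02 to 0.22 for Hist2h2be in females. Scaling moved the median of all genes to 0.09 in females. The setting with no filter still left out rows at 0 in all 12 libraries of a table, so not all 69 rows were fitted. No paired analysis was possible because no replicate number is shared between groups. Low read numbers limit all rows below the 8 highest.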

Other observations

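Hist1h2be took widely spaced values in both groups. It had 51.6 in PFC8, 51.5 in PFC5 and 41.0 in PFC3 (female MO) and 47.3 in PFC6 (female SAL), and 5.43 to 20.3 in the other 8 female libraries. In males it had 69.0 in PFC15, 42.9 in PFC13 and 34.4 in PFC17 (MO) and 58.0 in PFC16 (SAL), and 7.51 to 22.7 in the other 8.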
